A study of Mus musculus with 12 samples.

Results

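CD8 T cells lacking Ezh2 were compared before and after activation in the 3 knockout mice of the series, mice 4, 5 and 6. Each mouse gave 1 naive and 1 activated array, chosen by the sample titles and paired by mouse number, so 6 of the 12 arrays are compared here and all 20962 genes measured are considered. All 6 mice of the series were male C57BL/6 animals, 4 weeks old. The knockout mice had both Ezh2 alleles floxed and expressed Cre recombinase from the CD4 promoter, which is active in developing T cells and deletes Ezh2 in CD8 as well as CD4 cells. Mice 1, 2 and 3 were wild type at Ezh2 and gave the other 6 arrays. CD8 cells were taken from spleen and lymph nodes with magnetic beads at a stated purity above 93%. Naive cells were freshly isolated, and activated cells had been held for 3 days on plate-bound anti-CD3 together with a second antibody, which the description gives as anti-CD28 and the sample labels as anti-CD38. No array held cells cultured without stimulation, so stimulation, culture and handling cannot be told apart in any difference below. About 200 ng of RNA per sample was amplified before hybridization to Affymetrix HT mouse perfect-match arrays.

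Ezh2 is the enzyme of Polycomb repressive complex 2 (PRC2), which methylates histone H3 on lysine 27 and keeps genes silent. A naive CD8 T cell is small and quiescent. Stimulation through its antigen receptor and a costimulatory receptor starts growth and division and turns it into an effector cell that secretes cytokines and kills target cells with granzymes and perforin. The study asked how Ezh2 bears on this transition.

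Values are log2 expression estimates, so that a step of 1 is a 2-fold difference. The medians of the 12 arrays lay between 0.905 and 0.976, near the floor of the scale, and a fold change of a gene that is dim in either group is therefore compressed. Changes are activated minus naive, given with the standard error (SE) of a limma fit to all 12 arrays with n = 3 arrays per group, and a gene passed at an adjusted p under 0.05 over all genes. The number of arrays limits the precision. Within the naive and within the activated knockout group, Pearson's r between arrays across genes was 0.984 to 0.992, and between the groups it was 0.902 to 0.925. These are bulk samples, in which fewer cells of a type and less RNA per cell cannot be told apart.

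Ezh2 was measured by 1 probe set, and its position relative to the floxed exons is not known, so its signal gives no measure of deletion efficiency. It read 1.95, 2.14 and 2.18 in the naive and 2.72, 3.59 and 3.78 in the activated arrays. The activated arrays were all above the naive ones, and the activated array of mouse 4 was the lowest of its group. The rise in knockout cells was 1.27 ± 0.20 (adjusted p = 0.000124), against 3.09 ± 0.20 in wild-type cells, and the difference of the responses was -1.82 ± 0.28 (adjusted p = 0.00371). Of the 11 PRC2 genes measured, 7 rose and 3 fell, beside 15.8% of all genes that rose and 10.9% that fell. The core subunit genes Eed and Suz12 rose by 1.29 ± 0.18 and 0.75 ± 0.08, and the accessory factor genes Aebp2 and Mtf2 by 1.43 ± 0.10 and 0.86 ± 0.12. The second methyltransferase gene of the family, Ezh1, fell by 0.56 ± 0.11, and the accessory factor genes Phf1 and Jarid2 fell by 0.90 ± 0.11 and 1.03 ± 0.17. Ezh2 was the 1 member whose response differed between genotypes, a difference found for 0.868% of all genes.

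In total 5595 genes (26.7%) changed, of which 3312 were higher and 2283 lower in activated knockout cells. At least a 2-fold rise was reached by 1195 of these genes and at least a 2-fold fall by 515. Rises of at least 16-fold numbered 33 and falls of that size 3. The 3 activated and 3 naive knockout values did not overlap for 7557 of all genes (36.1%), so separation alone was common. The split of higher against lower calls depended on scaling: 59.2% of the calls were rises in the values as deposited and 49% after quantile normalization. Over all genes the median change was -0.02, and within mice 4, 5 and 6 it was 0.00, -0.02 and -0.02.

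**Figure D1:**
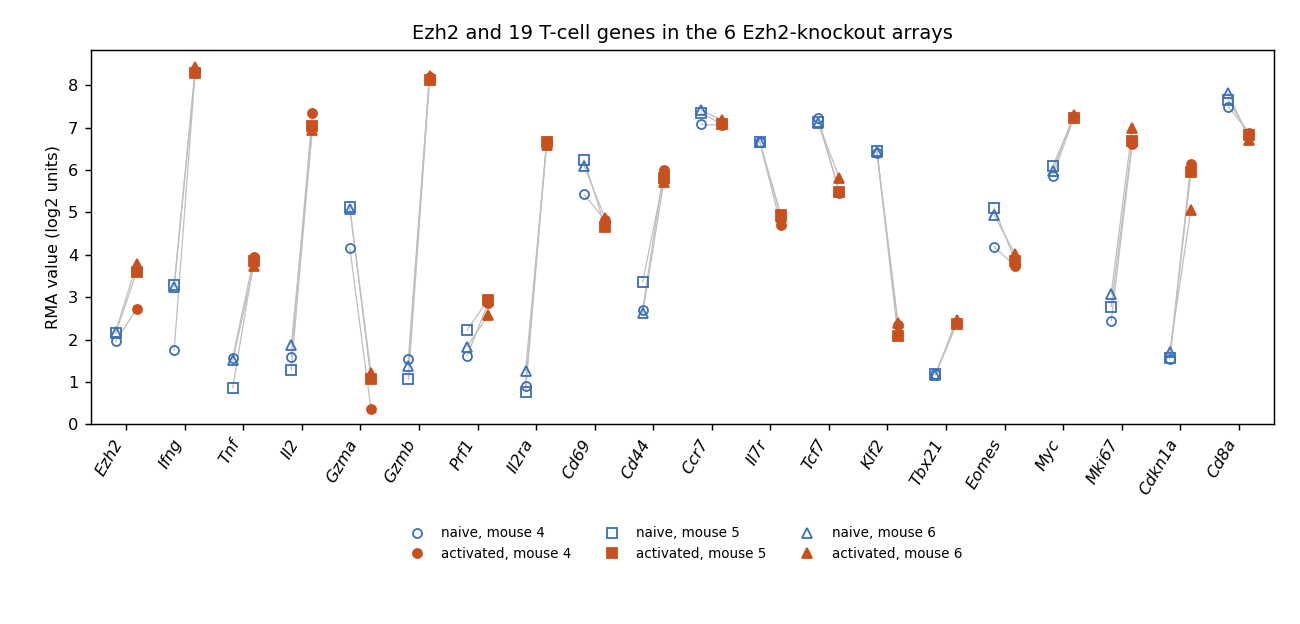
Log2 values of Ezh2 and genes of T-cell state in the 6 knockout arrays, with naive arrays as open and activated arrays as filled symbols, 1 symbol shape per mouse and a line joining the arrays of a mouse. Ifng, Gzmb, Il2 and Il2ra lie far higher in all 3 activated arrays, Klf2 and Gzma far lower, and the naive and activated values of Ccr7 overlap.

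Most genes encoding the antigen receptor and its proximal signalling proteins fell. Of 23 measured, 16 fell and 3 rose, with a median change of -0.68. Cd8b1, which encodes the beta chain of the CD8 coreceptor, read 6.57, 6.72 and 6.70 in the naive and 4.98, 5.01 and 4.61 in the activated arrays. The groups were far apart, and the fall was 1.79 ± 0.10. Lck, the kinase that starts receptor signalling, fell by 1.66 ± 0.11, Cd3g of the CD3 complex by 1.41 ± 0.11, and Rasgrp1 and Prkcq, which carry the signal to RAS and NF-kappaB, by 1.68 ± 0.17 and 1.64 ± 0.12. The 3 genes that rose encode the receptor modulators CD5 and CD6 and the adaptor SLP-76 (Lcp2), by 0.91 ± 0.11, 0.82 ± 0.09 and 0.72 ± 0.11. The change of Lck in wild-type cells was -0.74 ± 0.11, and the difference of the responses was -0.93 ± 0.15 (adjusted p = 0.00524). Cd8a itself fell by 0.85 ± 0.09 and remained at 6.87, 6.83 and 6.71 in the activated arrays.

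Genes of the early response to receptor signals split into 9 that rose and 14 that fell of 26. The transcription factor gene Egr2 read 3.07, 3.02 and 2.74 in the naive and 5.99, 6.01 and 6.37 in the activated arrays. Its relative Egr3 read 1.13, 1.06 and 0.96 in the naive and 3.90, 3.84 and 3.96 in the activated arrays. For both genes the activated values lie above all naive values, with rises of 3.18 ± 0.13 and 2.85 ± 0.14. Fos, an AP-1 subunit, read 6.31, 6.19 and 6.32 in the naive and 0.72, 0.71 and 0.74 in the activated arrays. All activated values lie far below the naive ones, and the fall of 5.55 ± 0.08 was the largest of all genes named. Dusp1, a phosphatase of MAP kinases, fell by 4.14 ± 0.11 and Fosb by 2.94 ± 0.14, whereas Dusp4, a phosphatase of the same family, rose by 2.63 ± 0.13, more than in wild-type cells by 1.33 ± 0.18 (adjusted p = 0.0012). Among 11 genes of the NF-kappaB pathway 6 rose and 2 fell. Nfkb1 and Rel, which encode subunits, rose by 1.76 ± 0.11 and 1.17 ± 0.13, and Tnfaip3, an inhibitor of the pathway, fell by 2.79 ± 0.09. Under quantile normalization 3 members rose.

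Transcription factor genes of effector cells rose more often than they fell, and those of naive cells mostly fell. Of 23 effector factors 11 rose, 3 fell and 9 did not pass. Irf8 read 2.20, 2.76 and 2.32 in the naive and 6.01, 5.89 and 5.44 in the activated arrays, and rose by 3.35 ± 0.15. Tbx21, which encodes T-bet, the main effector factor of CD8 cells, rose by 1.23 ± 0.09, Rbpj of the Notch pathway by 2.61 ± 0.11 and Xbp1 of the secretory programme by 1.99 ± 0.17. Myc, which drives growth, read 5.85, 6.09 and 5.97 in the naive and 7.22, 7.23 and 7.30 in the activated arrays, a rise of 1.28 ± 0.08 between groups that do not overlap. Eomes, the T-box factor of effector and memory cells, went the other way. It read 4.19, 5.10 and 4.93 in the naive and 3.73, 3.86 and 4.01 in the activated arrays, with the lowest naive value in mouse 4, and fell by 0.87 ± 0.18. Its change in wild-type cells was 0.75 ± 0.18, and the difference was -1.62 ± 0.25 (adjusted p = 0.00381). The wild-type means of Eomes were 2.11 ± 0.11 (SD) in naive and 2.86 ± 0.14 (SD) in activated cells. Both lay below every knockout array of the same state. Id2, an inhibitor of E proteins, showed no passing change in knockout cells (0.01) against -1.62 ± 0.15 in wild-type cells, a difference of 1.63 ± 0.22 (adjusted p = 0.00114).

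Of 22 factors of naive and quiescent T cells 15 fell and 2 rose, with a median change of -1.34. Klf2, which keeps T cells quiescent and circulating, read 6.41, 6.45 and 6.43 in the naive and 2.35, 2.07 and 2.39 in the activated arrays. This is a fall of 4.16 ± 0.10 with tight values on both sides. Tcf7, which encodes the Wnt-pathway factor TCF-1 of naive and memory cells, fell by 1.56 ± 0.10, Klf3, a repressor of the Klf2 family, by 2.53 ± 0.16, and Tsc22d3, the glucocorticoid-induced gene for GILZ, by 3.21 ± 0.16. The 2 rises were those of Slfn2 (0.70 ± 0.14) and Bach2 (0.50 ± 0.14). Bach2 no longer passed without the naive or the activated knockout array of mouse 5 (0.40 in either case), and neither passed after quantile normalization. By limma 0 members of the list passed the test of a difference between genotypes. With 0.868% of all genes passing, a count of 0 is near the background. The unadjusted p of this test was under 0.05 for 6 of the 22, beside 2057 of all 20962 genes. That is a larger share in the list than over all genes.

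Cytokine genes showed some of the largest rises. Of 24 measured, 13 rose and 1 fell. Ifng, which encodes interferon-gamma, read 1.76, 3.28 and 3.24 in the naive and 8.33, 8.29 and 8.43 in the activated arrays. The naive array of mouse 4 was the lowest, every activated value lay above every naive one, and the rise over the group means was 5.59 ± 0.27 (adjusted p = 6.3e-10). Il2, the T-cell growth factor gene, read 1.59, 1.29 and 1.87 in the naive and 7.35, 7.03 and 6.95 in the activated arrays. Il3, which encodes a haematopoietic growth factor, read 0.86, 1.01 and 0.82 in the naive and 7.44, 7.15 and 7.47 in the activated arrays. Neither gene came near to overlapping between the groups. The knockout rises of 5.53 ± 0.14 and 6.46 ± 0.10 exceeded those in wild-type cells (3.63 ± 0.14 and 4.55 ± 0.10) by 1.90 ± 0.20 and 1.91 ± 0.15 (adjusted p = 0.000138 and 6.83e-06). Il9, a cytokine gene not typical of CD8 effector cells, read 0.88, 1.02 and 1.02 in the naive and 3.53, 3.72 and 4.64 in the activated arrays. It rose by 2.99 ± 0.20 in knockout and by 0.65 ± 0.20 in wild-type cells, a difference of 2.34 ± 0.28 (adjusted p = 0.000363). Csf2 and Tnfsf11, which encode GM-CSF and RANKL, rose by 4.73 ± 0.13 and 5.08 ± 0.11, also more than in wild-type cells, by 1.23 ± 0.18 and 1.12 ± 0.16. Together 5 of the 24 cytokine genes had a larger response in knockout cells and 0 a smaller one, beside 0.606% and 0.262% of all genes. Lta and Tnf rose by 4.97 ± 0.11 and 2.52 ± 0.15 with no passing difference between genotypes, and Ltb, a lymphotoxin subunit of resting lymphocytes, fell by 0.83 ± 0.12.

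Of 14 chemokine genes 7 rose and 1 fell. Ccl3 read 1.84, 2.12 and 2.54 in the naive and 9.51, 9.45 and 9.49 in the activated arrays, and its rise of 7.31 ± 0.13 was the largest of all those named. Xcl1 and Ccl4 rose by 4.12 ± 0.15 and 4.42 ± 0.21. Ccl9 and Ccl1 rose by 5.81 ± 0.11 and 4.66 ± 0.12, more than in wild-type cells by 1.25 ± 0.16 and 1.47 ± 0.17. Ccl5, a chemokine gene of memory and effector CD8 cells, read 6.27, 6.04 and 6.05 in the naive and 5.78, 5.60 and 5.37 in the activated arrays. It fell by 0.54 ± 0.10 in knockout and changed by -2.21 ± 0.10 in wild-type cells, a difference of 1.67 ± 0.15 (adjusted p = 3e-05).

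Genes of the cytotoxic granule did not move as a block. Of 21 measured, 9 rose, 4 fell and 8 did not pass. Gzmb, which encodes granzyme B, read 1.55, 1.06 and 1.37 in the naive and 8.20, 8.13 and 8.22 in the activated arrays, a rise of 6.85 ± 0.12 or 116-fold. Gzma, which encodes granzyme A, read 4.16, 5.13 and 5.08 in the naive and 0.36, 1.07 and 1.22 in the activated arrays. It fell by 3.91 ± 0.24 to near the floor of the scale, with mouse 4 lowest in both states. Prf1, the perforin gene, read 1.61, 2.22 and 1.83 in the naive and 2.85, 2.94 and 2.57 in the activated arrays, with groups that lie close together, and rose by 0.90 ± 0.18 (adjusted p = 0.00109). Gzmc read 1.10, 0.76 and 1.10 in the naive and 5.05, 4.67 and 4.09 in the activated arrays, and rose by 3.62 ± 0.18 in knockout and by 1.18 ± 0.18 in wild-type cells. The response was larger in knockout cells by 2.44 ± 0.26 for Gzmc, by 1.04 ± 0.17 for Gzmb and by 0.97 ± 0.16 for Serpinb9, an inhibitor of granzyme B (adjusted p = 0.000138, 0.00524 and 0.00661). For Gzmb the activated means were 8.18 ± 0.05 (SD) in knockout and 7.85 ± 0.06 (SD) in wild-type cells. The naive means were further apart and in the other order, at 1.33 ± 0.25 (SD) and 2.04 ± 0.18 (SD). The granzyme genes Gzmd, Gzme, Gzmf, Gzmg and Gzmn, which form a cluster with Gzmb and Gzmc and are similar to them in sequence, did not pass, with changes from -0.04 to 0.10. These 5 were chosen after their values were seen.

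Of 25 cytokine receptor genes 3 rose (12%) and 11 fell (44%), beside 15.8% and 10.9% of all genes. Il2ra, the alpha chain of the interleukin-2 receptor, read 0.91, 0.77 and 1.26 in the naive and 6.69, 6.66 and 6.59 in the activated arrays, and rose by 5.67 ± 0.12 or 50.8-fold. Il12rb2, the interleukin-12 receptor chain, rose by 2.75 ± 0.19. The receptor genes for cytokines that maintain resting cells fell, Il7r by 1.82 ± 0.11, Il6ra by 2.86 ± 0.17 and Il6st by 2.04 ± 0.12, and so did the interferon-gamma receptor gene Ifngr1 by 1.60 ± 0.11. Il2rb, a signalling chain of the interleukin-2 receptor, fell by 0.36 ± 0.08 in knockout cells and changed by 0.45 ± 0.08 in wild-type cells, a difference of -0.82 ± 0.11 (adjusted p = 0.000993). Of 8 genes for cytokine feedback 6 rose, led by Cish (3.81 ± 0.12) and Socs2 (1.85 ± 0.16), and Socs3 fell by 1.58 ± 0.20. After quantile normalization 3 members rose.

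Receptors that direct migration mostly fell, 18 of 29 (62.1%), and 3 rose (10.3%), beside 10.9% of all genes that fell and 15.8% that rose. S1pr1, which lets T cells leave lymphoid tissue, read 6.03, 5.79 and 5.80 in the naive and 1.85, 2.89 and 2.94 in the activated arrays. It fell by 3.31 ± 0.21, furthest in mouse 4, and the oxysterol receptor gene Gpr183 fell by 3.98 ± 0.17. The chemokine receptor gene Ccr7 read 7.07, 7.34 and 7.41 in the naive and 7.05, 7.08 and 7.17 in the activated arrays and did not pass in this fit (-0.17, adjusted p = 0.207). It passed as a fall of 0.27 without the naive array of mouse 4 and of 0.39 after quantile normalization. Cd44, the adhesion receptor of activated cells, rose by 2.95 ± 0.15 and the integrin gene Itgav by 2.98 ± 0.16. Itgae, which encodes the integrin CD103, read 3.03, 2.56 and 2.20 in the naive and 2.65, 2.02 and 2.96 in the activated arrays. Its groups overlap in knockout cells. The wild-type means were 5.25 ± 0.22 (SD) in naive and 2.78 ± 0.20 (SD) in activated cells, a change of -2.48 ± 0.22, and the responses differed by 2.43 ± 0.31 (adjusted p = 0.000865). Itga4 fell less in knockout than in wild-type cells (-0.92 ± 0.13 and -2.12 ± 0.13, difference 1.20 ± 0.19). Cxcr3, the chemokine receptor gene of effector cells, fell more (-1.79 ± 0.11 and -0.64 ± 0.11, difference -1.15 ± 0.15). Its naive means were 5.21 ± 0.02 (SD) in knockout and 3.57 ± 0.05 (SD) in wild-type cells. The activated means were 3.43 ± 0.18 (SD) and 2.94 ± 0.21 (SD), so the knockout mean was the higher one in both states.

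Costimulatory receptor genes split evenly, with 6 rises and 6 falls of 15. The tumour necrosis factor receptor genes Tnfrsf9 (4-1BB) and Tnfrsf4 (OX40), which appear on activated T cells, rose by 4.40 ± 0.15 and 3.41 ± 0.15. Cd28 fell by 1.66 ± 0.10, and Cd2, an adhesion and signalling receptor, by 1.73 ± 0.08. The change of Cd2 in wild-type cells was -0.58 ± 0.08, a difference of -1.15 ± 0.12 (adjusted p = 0.000124). Cd69, often used as an early activation marker, read 5.42, 6.24 and 6.10 in the naive and 4.81, 4.65 and 4.86 in the activated arrays. The groups did not overlap, and it fell by 1.14 ± 0.16. The group of inhibitory receptors also holds ligand genes, and of its 15 genes 6 rose and 4 fell. Cd200, a ligand gene, rose by 4.05 ± 0.18, while the receptor genes Cd200r1 and Cd200r4 did not pass (-0.07 and -0.03). Pdcd1 and its ligand gene Pdcd1lg2 rose by 1.99 ± 0.15 and 1.99 ± 0.12, and Vsir and Ctla4 fell by 1.36 ± 0.16 and 0.64 ± 0.12. The ligand gene Cd274 rose by 0.73 ± 0.13. Lag3 passed in this fit (0.38 ± 0.11) but not without the naive array of mouse 4 (0.31).

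Of 18 genes for NK-cell receptors and their adaptors 2 rose (11.1%) and 7 fell (38.9%), beside 15.8% and 10.9% of all genes. Klra8, an inhibitory Ly49 receptor gene, read 3.03, 4.63 and 4.24 in the naive and 0.74, 0.78 and 0.66 in the activated arrays, and fell by 3.24 ± 0.27 in knockout cells. Wild-type means were at the floor in both states, 0.54 ± 0.08 (SD) in naive and 0.75 ± 0.12 (SD) in activated cells, and the difference of -3.46 ± 0.38 (adjusted p = 0.00018) was the largest negative one of all those named. The naive knockout mean was 3.97 ± 0.84 (SD). Ly49 genes have near-identical copies, and signal from another copy on this probe set was not tested. Tyrobp, which encodes the adaptor DAP12, fell by 0.87 ± 0.15 in knockout and by more in wild-type cells (-3.39 ± 0.15), a difference of 2.52 ± 0.21 (adjusted p = 2.15e-05). Its naive means were 1.93 ± 0.42 (SD) in knockout and 4.43 ± 0.07 (SD) in wild-type cells. The activated means were 1.06 ± 0.13 (SD) and 1.03 ± 0.03 (SD), near the floor in both genotypes. The activating receptor gene Klrk1 (NKG2D) and Klrc1 (NKG2A) rose by 1.27 ± 0.12 and 2.09 ± 0.17. The naive array of mouse 4 had a summed log2 level of 32.1 over these genes, against 37.1 and 37.3 in mice 5 and 6, and the counts were 2 and 7 without it as well.

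Nearly all genes of cell division rose. Of 32 genes of mitosis 30 rose and 0 fell, with a median change of 1.85 in knockout and 1.52 in wild-type cells, and of 37 genes of DNA replication 33 rose and 0 fell. At an unadjusted p under 0.05 limma also gave 0 falls in either list. Mki67, the proliferation marker, read 2.44, 2.77 and 3.08 in the naive and 6.62, 6.67 and 6.99 in the activated arrays. Its rise of 4.00 ± 0.15 left the groups far apart. Ube2c, the ubiquitin-conjugating enzyme of the anaphase-promoting complex, rose by 4.32 ± 0.19, and Cdc20, an activator of that complex, by 2.84 ± 0.18. Rrm2, which encodes the small subunit of ribonucleotide reductase, rose by 4.91 ± 0.11, Mcm5 of the replicative helicase by 2.99 ± 0.14 and the DNA ligase gene Lig1 by 2.55 ± 0.14. Of 25 cyclins, cyclin-dependent kinases and E2F factors 16 rose, such as Ccna2 (3.15 ± 0.16) and Cdk1 (2.98 ± 0.14), and 0 fell. With the mouse as a block 1 of them fell. Tyms, Orc1, Cdc45 and Gins3 did not pass among the replication genes, nor Ttk and Kif23 among those of mitosis, and with the block Ttk passed as a rise (0.45, adjusted p = 0.0211).

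Promoter sequences of these groups were read because genes of a phase of the cycle rose together. A cell cycle homology region, found in promoters of mitotic genes, holds the letters TTTGAA, and one form of an E2F site, found in promoters of replication genes, reads TTTGGCGC. The windows span 250 bases before to 50 after the start of a RefSeq transcript in GRCm38.p6, and both strands were searched. TTTGAA occurred in 23 of the 30 windows found for 28 of the mitosis genes (76.7%) and in 17.9% of all 32851 windows. TTTGGCGC occurred in 5 of the 33 windows found for 29 replication genes (15.2%) and in 0.514% of all windows. Neither set of letters contains the other. In the windows of the genes that rose the shares were 75% for TTTGAA and 17.2% for TTTGGCGC. The lists are groups of gene function, so a share over a list does not measure the response. The same holds for the other lists with motifs below. A match is a description of the letters and does not show that a factor binds. The windows of the mitosis genes Ube2c (chr2:164769679-164769978, plus strand) and Mki67 (chr7:135716330-135716629, minus strand) and of the helicase genes Mcm5 (chr8:75109259-75109558, plus strand) and Mcm6 (chr1:128359656-128359955, minus strand) are shown 5′ to 3′ with the match, on either strand, in capitals.
Ube2c: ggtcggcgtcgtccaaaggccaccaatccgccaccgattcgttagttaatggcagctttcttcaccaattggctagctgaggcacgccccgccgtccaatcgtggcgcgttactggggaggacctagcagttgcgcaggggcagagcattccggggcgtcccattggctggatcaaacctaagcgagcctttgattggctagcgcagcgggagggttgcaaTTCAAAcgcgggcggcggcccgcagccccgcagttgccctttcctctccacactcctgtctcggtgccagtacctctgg
Mki67: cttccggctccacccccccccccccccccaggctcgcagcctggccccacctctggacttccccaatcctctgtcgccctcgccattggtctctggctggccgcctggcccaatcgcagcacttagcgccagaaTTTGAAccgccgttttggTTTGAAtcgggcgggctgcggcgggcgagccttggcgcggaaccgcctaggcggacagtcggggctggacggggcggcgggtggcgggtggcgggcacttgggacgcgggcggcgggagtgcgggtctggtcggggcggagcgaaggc
Mcm5: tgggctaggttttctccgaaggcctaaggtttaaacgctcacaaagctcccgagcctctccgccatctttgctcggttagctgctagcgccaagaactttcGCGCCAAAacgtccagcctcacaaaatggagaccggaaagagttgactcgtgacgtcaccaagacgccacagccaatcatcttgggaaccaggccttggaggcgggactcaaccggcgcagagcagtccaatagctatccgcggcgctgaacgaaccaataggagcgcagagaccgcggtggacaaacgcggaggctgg
Mcm6: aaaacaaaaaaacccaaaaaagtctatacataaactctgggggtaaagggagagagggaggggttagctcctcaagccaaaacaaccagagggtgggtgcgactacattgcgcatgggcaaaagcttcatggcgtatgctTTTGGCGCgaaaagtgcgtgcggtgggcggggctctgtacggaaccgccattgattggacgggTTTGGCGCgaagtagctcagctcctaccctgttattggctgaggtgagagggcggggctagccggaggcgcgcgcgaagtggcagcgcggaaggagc

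Inhibitors of the cycle went in both directions. Cdkn1a, which encodes the inhibitor p21, read 1.55, 1.56 and 1.70 in the naive and 6.13, 5.94 and 5.06 in the activated arrays, and rose by 4.11 ± 0.21, least in mouse 6. Cdkn1b, which encodes p27 of resting cells, fell by 1.52 ± 0.10. Cdkn2a, a known target of PRC2 silencing, read 0.89, 0.93 and 0.97 in the naive and 0.94, 0.97 and 0.75 in the activated arrays. Its values overlapped between the groups, at the level of the array medians (-0.04, adjusted p = 0.808). Of 20 p53 targets 13 rose and 3 fell. The cyclin gene Ccng1 and the kinase gene Plk2 rose by 2.24 ± 0.18 and 1.27 ± 0.10. Perp, a membrane protein gene induced by p53, read 0.43, 0.35 and 0.27 in the naive and 3.20, 3.29 and 4.01 in the activated arrays. It rose by 3.15 ± 0.17 in knockout cells and did not pass in wild-type cells (0.48 ± 0.17), a difference of 2.66 ± 0.24 (adjusted p = 3.59e-05). Of 23 genes of survival and cell death 7 rose (30.4%), 2 fell (8.7%) and 14 did not pass, beside 15.8% and 10.9% of all genes that rose and fell. Bcl2l1, which encodes BCL-XL, rose by 1.06 ± 0.14.

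**Figure D2:**
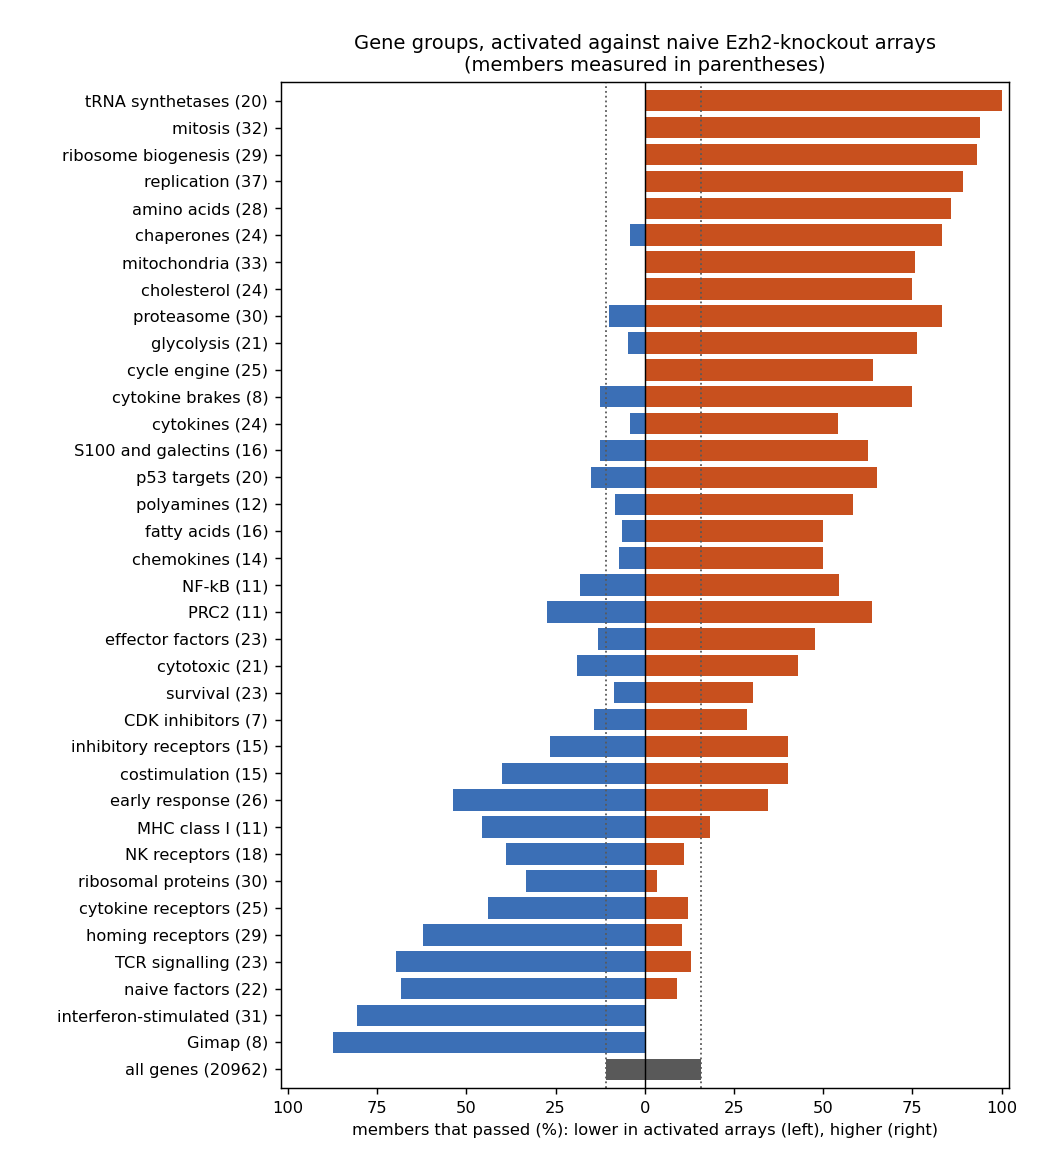
Share of the measured members of each gene group that were higher (right) or lower (left) in activated than in naive knockout arrays at an adjusted p under 0.05, in percent, with the number measured in parentheses and dotted lines at the shares of all genes (15.8% higher, 10.9% lower). The groups of tRNA synthetases, mitosis and ribosome biogenesis extend furthest right, and those of Gimap, interferon-stimulated and TCR signalling genes furthest left.

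Nearly all genes that equip protein synthesis rose, but not those for the ribosomal proteins. All 20 cytosolic aminoacyl-tRNA synthetase genes rose, by 0.50 to 2.23, with a median change of 1.38 in knockout and 1.71 in wild-type cells. Of 29 genes of ribosome biogenesis 27 rose and 0 fell, such as Nolc1 (2.14 ± 0.11) and Mybbp1a (1.61 ± 0.10). The letters CACGTG, the E-box that MYC and related factors bind, occurred in 6 of the 27 windows of these genes (22.2%) and in 7.15% of all windows. Of 30 ribosomal protein genes 10 fell and 1 rose, with a median change of -0.13. The 1 rise, of Rpl14, did not pass with the mouse as a block (adjusted p = 0.0649) or without the naive arrays of mice 5 or 6 or the activated array of mouse 6, and the falls numbered 6 without the naive or the activated array of mouse 6. The median level of ribosomal protein genes was 8.59 to 8.63 in the naive and 8.49 to 8.55 in the activated arrays, near the top of a scale that ends at 10.595.

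Genes that supply amino acids rose too. Of 28 genes of amino acid transport, serine and one-carbon metabolism and the ATF4 response 24 rose and 0 fell. Asns, which encodes asparagine synthetase, read 0.87, 0.73 and 1.17 in the naive and 5.58, 5.66 and 5.45 in the activated arrays, a rise of 4.64 ± 0.11 or 25-fold. Slc7a5, the transporter of large neutral amino acids, rose by 3.73 ± 0.11, and Shmt2 and Mthfd2 of the mitochondrial folate cycle by 3.36 ± 0.10 and 2.70 ± 0.09. Ddit3, a factor of the stress response, did not pass (0.08). The letters TGATGNAA, one form of the amino acid response element through which ATF4 acts, occurred in 6 of the 27 windows of these genes (22.2%) and in 3.97% of all windows. Polyamine genes rose in 7 and fell in 1 of 12, led by the spermidine synthase gene Srm (2.48 ± 0.12). The window of Asns (chr6:7693160-7693459, minus strand) is shown as that of the gene of the list with the largest rise, with the match in capitals.
Asns: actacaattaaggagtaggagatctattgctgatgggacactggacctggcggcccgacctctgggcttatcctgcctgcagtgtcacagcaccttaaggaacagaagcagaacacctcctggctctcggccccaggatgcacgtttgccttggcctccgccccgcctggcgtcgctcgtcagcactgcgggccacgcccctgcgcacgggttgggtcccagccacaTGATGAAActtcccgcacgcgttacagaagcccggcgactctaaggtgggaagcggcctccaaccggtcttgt

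Most genes of energy metabolism rose. Of 21 genes of glucose uptake, glycolysis and lactate handling 16 rose and 1 fell. The hexokinase gene Hk2 read 2.48, 2.70 and 2.13 in the naive and 4.46, 4.64 and 5.12 in the activated arrays, and rose by 2.31 ± 0.16. Pgam1 and Pgk1 of lower glycolysis rose by 2.38 ± 0.13 and 2.21 ± 0.10, and the lactate exporter gene Slc16a1 by 1.60 ± 0.18. Pdk1, which encodes a mitochondrial kinase that inhibits pyruvate dehydrogenase, fell by 1.35 ± 0.21. Of 33 respiratory chain and ATP synthase genes 25 rose and 0 fell, with a median change of 0.70 and the largest named rise in Cycs, which encodes cytochrome c (2.17 ± 0.12). The median response of this group was 1.01 in mouse 4 and 0.58 and 0.60 in mice 5 and 6, and the naive array of mouse 4 had the lowest summed level of the group (152.2 against 166.0 and 163.8). Without that array 24 rose.

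Of 24 genes of cholesterol synthesis and uptake 18 rose and 0 fell, with a median change of 1.15 in knockout and 0.79 in wild-type cells. Hmgcs1, which encodes the synthase upstream of HMG-CoA reductase, read 3.80, 3.74 and 3.81 in the naive and 6.44, 6.49 and 6.48 in the activated arrays. Its groups lie well apart, and its rise of 2.68 ± 0.08 exceeded that of wild-type cells (1.71 ± 0.08) by 0.97 ± 0.12 (adjusted p = 0.000374). Idi1 and Fdft1 passed this test too, but in 9 and 14 of the alternatives they did not, with adjusted p up to 0.116 and 0.135. With the mouse as a block the adjusted p of Fdft1 was 0.0825. Idi1 rose by 5.61 ± 0.16, Cyp51 by 3.07 ± 0.15 and Sqle, which encodes squalene epoxidase, by 1.81 ± 0.13. Of 16 fatty acid synthesis genes 8 rose and 1 fell, with rises of 1.65 ± 0.10 and 1.67 ± 0.14 for the enzyme genes Fasn and Acaca. The letters TCACNCCAC, one form of the sterol regulatory element through which SREBP factors act, occurred in 1 of the 20 windows of the sterol genes (5%) and in 1.24% of all windows. That window is the one of Hmgcs1 (chr13:119690101-119690400, plus strand), shown with the match in capitals.
Hmgcs1: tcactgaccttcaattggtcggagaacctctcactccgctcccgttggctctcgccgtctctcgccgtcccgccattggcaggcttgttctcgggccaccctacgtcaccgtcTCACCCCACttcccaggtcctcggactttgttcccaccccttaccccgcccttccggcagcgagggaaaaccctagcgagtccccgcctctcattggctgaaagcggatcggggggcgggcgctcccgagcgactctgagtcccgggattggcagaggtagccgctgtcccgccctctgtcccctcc

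Most chaperone and proteasome genes rose. Of 24 chaperones 20 rose and 1 fell, with rises of 1.90 ± 0.11 and 1.83 ± 0.13 for the mitochondrial chaperone genes Hspa9 and Hspd1. Of 30 proteasome genes 25 rose and 3 fell. The naive array of mouse 4 had the lowest summed level of the group (132.5 against 142.6 and 143.6), and the counts were 25 and 3 without it as well. The constitutive catalytic subunit gene Psmb7 rose by 1.86 ± 0.14. Its interferon-induced counterpart Psmb10 and a second such gene, Psmb9, fell by 1.08 ± 0.16 and 0.45 ± 0.11, as did the activator gene Psme1 by 0.32 ± 0.08, and Psmb8 did not pass (-0.17). After quantile normalization Psmb8 fell by 0.47 (adjusted p = 0.000383 by limma), and 5 genes of the list fell. Of 11 genes of MHC class I and antigen processing 5 fell (45.5%), among them H2-D1 (0.78 ± 0.09) and the class I transactivator gene Nlrc5 (1.00 ± 0.11), and 2 rose (18.2%). Of all genes 10.9% fell and 15.8% rose, so the share of rises is near that of all genes. Class I genes have near-identical copies, and cross-hybridization was not tested. Of the 2 rises, that of the endoplasmic reticulum chaperone gene Pdia3 (1.11 ± 0.15) passed with each array left out in turn, and that of Calr did not without the naive array of mouse 6 (0.62) or the activated arrays of mice 4 or 5 (0.54 and 0.62).

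Most interferon-stimulated genes fell. Of 31 measured, 25 fell and 0 rose, with a median change of -1.17 in knockout and -0.51 in wild-type cells, where 18 fell and 1 rose, beside 11.9% and 14.8% of all genes. Usp18, which encodes an inhibitor of interferon receptor signalling, read 2.50, 3.74 and 4.02 in the naive and 0.82, 0.83 and 1.02 in the activated arrays. The naive array of mouse 4 was the lowest of its group and still above all activated arrays. The fall was 2.53 ± 0.26, while the wild-type change of -0.40 ± 0.26 did not pass, a difference of -2.14 ± 0.37 (adjusted p = 0.00962). Irf7, the factor that amplifies the interferon response, read 2.73, 3.10 and 3.18 in the naive and 1.10, 1.33 and 1.14 in the activated arrays. It fell by 1.81 ± 0.12, with a difference of -1.06 ± 0.17 from the wild-type response. Means of Usp18 were 3.42 ± 0.81 (SD) in naive and 0.89 ± 0.11 (SD) in activated knockout cells and 1.19 ± 0.12 (SD) and 0.80 ± 0.10 (SD) in wild-type cells. The difference was -1.01 ± 0.18 for Oasl2, and with Oas1a, Oas2, Rsad2 and Zbp1 the responses of 7 of 31 genes were lower in knockout cells and 0 higher, beside 0.262% and 0.606% of all genes. These 4 did not pass in 2, 9, 7 and 6 of the alternatives. The summed level of the 31 genes was 86.3 in the naive array of mouse 4 and 100.9 in that of mouse 5, with mouse 6 close to mouse 5, and between 57.6 and 59.0 in the activated arrays. Without the naive array of mouse 4 the falls numbered 27. Ifng rose in the same cells, as given above.

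**Figure D3:**
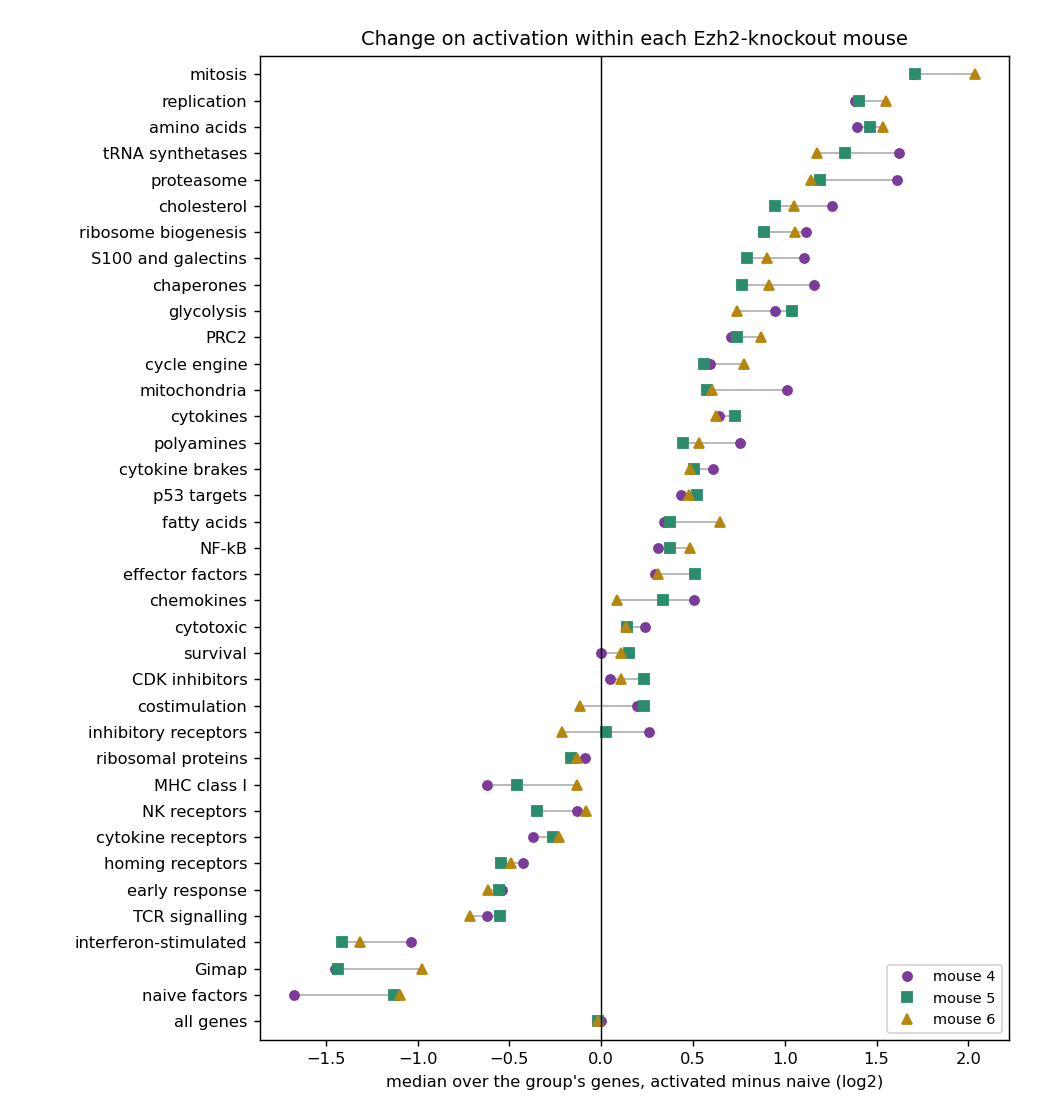
Median over the genes of each group of the activated minus naive log2 value within mouse 4, 5 and 6, 1 symbol shape per mouse. The sign was the same in the 3 mice for mitosis (1.70 to 2.04), amino acids (1.39 to 1.54) and interferon-stimulated genes (-1.41 to -1.04), and it differed between mice for the costimulation and inhibitory receptor groups.

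S100, annexin and galectin genes mostly rose. Of 16 measured, 10 rose and 2 fell in knockout cells, with a median change of 0.95 against 0.10 in wild-type cells. Lgals3, which encodes galectin-3, read 1.67, 1.51 and 1.42 in the naive and 7.06, 6.93 and 6.83 in the activated arrays, and rose by 5.41 ± 0.11 in knockout and 3.34 ± 0.11 in wild-type cells. S100a6 read 1.34, 1.54 and 1.64 in the naive and 4.42, 4.23 and 4.11 in the activated arrays. It rose by 2.75 ± 0.11 in knockout and by 0.71 ± 0.11 in wild-type cells, a difference of 2.03 ± 0.16 (adjusted p = 9.6e-06). Its naive means were far apart, at 1.51 ± 0.15 (SD) in knockout and 3.79 ± 0.18 (SD) in wild-type cells. The activated knockout mean of 4.25 ± 0.15 (SD) was not above the wild-type one. S100a4, a calcium-binding protein gene of motile and memory cells, rose by 1.11 ± 0.08 against a change of -0.58 ± 0.08 in wild-type cells, a difference of 1.69 ± 0.12 (adjusted p = 6.83e-06). In all, 8 of the 16 genes had a larger response and 0 a smaller one, beside 0.606% and 0.262% of all genes. Lgals3, S100a6, S100a4, Lgals1 and S100a11 passed in every alternative. Anxa2, Anxa5 and S100a10 did not pass in 1, 11 and 8 of them, and with the mouse as a block Anxa5 had an adjusted p of 0.0902 and S100a10 of 0.0585.

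**Figure D4:**
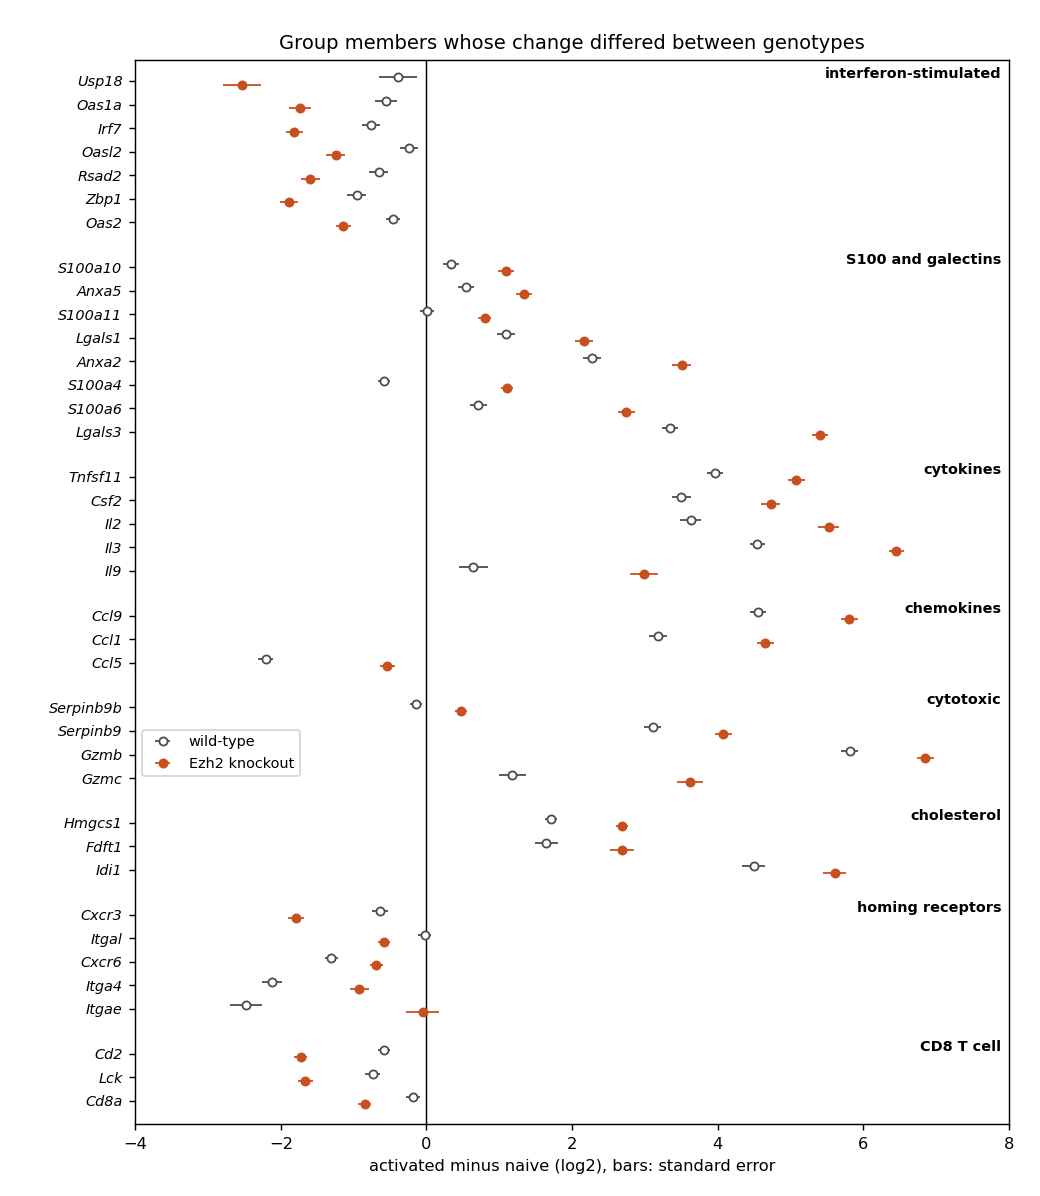
Change on activation (activated minus naive, log2) in knockout (filled) and wild-type cells (open) for members of 8 groups whose response passed the test of a difference between genotypes, with bars of 1 standard error. The knockout value lies left of the wild-type value for all interferon-stimulated genes shown and right of it for all cytokine, chemokine, cytotoxic, cholesterol and S100 genes shown.

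The response differed between genotypes for 182 genes (0.868%), 127 of them with a higher value of the change in knockout cells and 55 with a lower one. A higher value is not always a larger rise: of the 127 genes 36 fell in wild-type cells, and 22 of these fell in both genotypes. The count of 127 was more stable than that of 55. With single arrays left out, the higher count lay between 91 and 136, and the lower count was 98 without the naive knockout array of mouse 4. The lower count was 25 without the naive and 36 without the activated knockout array of mouse 5. Without the naive wild-type arrays of mice 1 or 3 it was 31 in either case, and without the activated wild-type arrays of mice 1, 2 and 3 it was 30, 27 and 32. Of the genes named here, 75 passed this test, and 48 of them passed under every alternative in which their probe set was kept. For 47 of the 48 that was all 19 alternatives. Leaving out 1 array ended between 8 and 20 of the 75 calls, depending on the array.

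The largest positive difference among the genes named was that of Inhba, which encodes an activin subunit. It read 0.83, 0.74 and 0.80 in the naive and 3.81, 3.87 and 3.63 in the activated arrays. It rose by 2.98 ± 0.12 in knockout cells and did not pass in wild-type cells (0.31 ± 0.12), a difference of 2.67 ± 0.17 (adjusted p = 3.56e-06). Adm, which encodes the vasodilator peptide adrenomedullin, read 1.89, 2.16 and 1.71 in the naive and 4.83, 4.69 and 4.77 in the activated arrays, and its response was larger by 2.59 ± 0.29 (adjusted p = 0.000254). Neither gene overlapped between naive and activated knockout arrays. The means of Adm were 1.92 ± 0.23 (SD) in naive and 4.76 ± 0.07 (SD) in activated knockout cells and 3.03 ± 0.32 (SD) and 3.28 ± 0.51 (SD) in wild-type cells. Cd24a, a surface protein gene of immature lymphocytes, had a response larger by 2.37 ± 0.31, with a rise of 2.75 ± 0.22 in knockout cells and a value that did not pass in wild-type cells (0.38 ± 0.22). On the negative side Ly6a, which encodes the interferon-inducible surface protein Sca-1, did not pass in knockout cells (-0.01) and rose by 1.42 ± 0.15 in wild-type cells, a difference of -1.44 ± 0.21 (adjusted p = 0.00196). Iigp1, an interferon-inducible GTPase gene, rose in both genotypes, by 1.22 ± 0.13 in knockout and 2.53 ± 0.13 in wild-type cells, a difference of -1.31 ± 0.19.

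**Figure D5:**
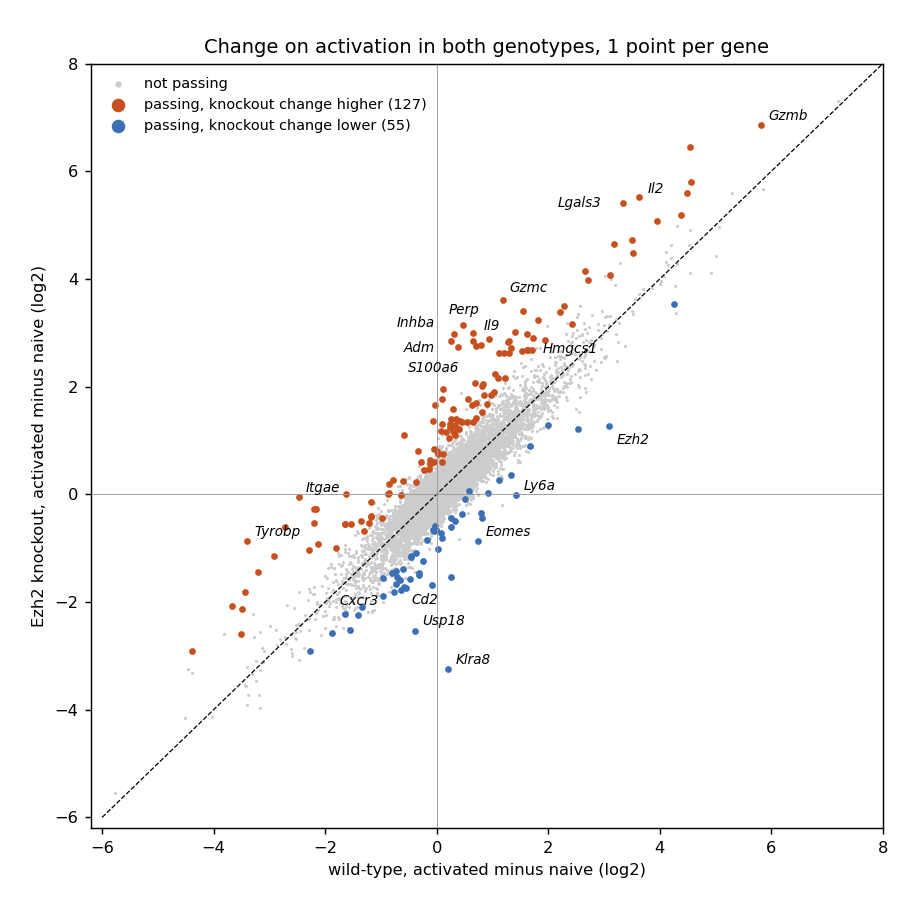
Activated minus naive log2 change in wild-type cells (horizontal axis) and knockout cells (vertical axis), 1 point per gene, with equal changes on the dashed line. Coloured points are the 127 genes with a higher and the 55 with a lower change in knockout cells, and Inhba, Perp, Gzmc, Klra8 and Usp18 lie among the furthest from the line.

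The label CD8 T cell was checked against its markers. All 6 arrays read high for Cd8a (7.49, 7.64 and 7.81 in the naive and 6.87, 6.83 and 6.71 in the activated arrays) and Cd3e (7.36, 7.15 and 7.17 in the naive and 6.70, 6.60 and 6.35 in the activated arrays). Thy1, a pan-T-cell surface gene, did not pass (0.20), and 7 of 9 markers fell while 0 rose. Without the activated array of mouse 6 Thy1 passed as a rise (0.29). Gimap genes, GTPases of lymphocyte survival, fell in 7 of 8 and rose in 0, with a median change of -1.29.

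Some markers of other cells, those of MHC class II among them, lay above the array medians in naive arrays, and the part of these markers in the results was not tested. Of 20 B-cell and MHC class II genes 10 fell and 0 rose, and 9 fell without the naive array of mouse 4. H2-Aa, an MHC class II gene of B cells and dendritic cells, read 4.47, 5.41 and 5.53 in the naive and 1.85, 2.21 and 1.63 in the activated arrays. The B-cell gene Ms4a1 read 0.60, 0.85 and 0.83 in the naive arrays, near the array medians. Over the 20 genes the summed level was 34.8 to 38.6 in naive and at most 22.8 in activated arrays. The falls of Cd74, H2-Ab1 and H2-Eb1 were smaller in knockout than in wild-type cells by 1.60 ± 0.20, 1.49 ± 0.27 and 1.36 ± 0.17. Jchain, an immunoglobulin joining chain gene of plasma cells, did not pass in knockout cells (-0.28) and changed by -2.17 ± 0.13 in wild-type cells, a difference of 1.89 ± 0.18.

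Beside the marker counts that follow, 10.9% of all genes fell and 15.8% rose. Of 23 myeloid genes 2 fell and 0 rose, and 1 fell without the activated array of mouse 5 or 6. The share of falls was 8.7% for these and 8.33% for the red-cell and platelet genes below, near that of all genes. The summed level of the myeloid genes was 20.8 to 22.1 in naive and 18.7 to 20.7 in activated arrays. Of 12 dendritic-cell markers 2 rose and 3 fell. The 2 rises were those of Irf8, given above as a T-cell factor, and of Batf3, which did not pass without either naive array of mice 4 and 5 or the activated array of mouse 5 (0.50, 0.55 and 0.41). Of 9 markers of CD4 and regulatory T cells 3 rose, Il2ra, Nrp1 (1.40 ± 0.12) and Ikzf4 (0.90 ± 0.18), which activated T cells also express, while Cd4 read 1.87, 1.50 and 1.49 in the naive and 1.54, 1.46 and 1.38 in the activated arrays and Foxp3 did not pass (0.11). Of 8 plasma-cell markers 2 rose (Xbp1 and Irf4) and 1 fell (Mzb1), and the fall did not pass without the naive arrays of mice 5 or 6 or the activated arrays of mice 4 or 6. The probe set of Irf4 matches the antisense strand, per the deposited annotation. Red-cell and platelet genes fell in 1 of 12, which was Gp1bb. The count was 0 with the mouse as a block and 0 without the naive array of mouse 4 or the activated arrays of mice 4 or 6. Gp1bb itself did not pass in 9 of the alternatives, those without the naive arrays of mice 5 or 6 among them. Stromal and endothelial genes fell in 3 of 14, and in 1 without the naive arrays of mice 4 or 6. None of the genes in either list rose (0 each).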

How the data were processed

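Expression was measured on 12 Affymetrix HT mouse perfect-match arrays. The log2 values were made by the authors with RMA, per the submitters' processing notes and the file headers, with no version stated there. They were used as deposited, with array medians from 0.905 to 0.976. The deposited workbook also holds the authors' ratio of group means per comparison. That ratio, taken to log2, equalled the difference of the means used here to within 1.6e-09, and it was used for this check only. A later column keeps the ratio of probe sets the authors selected, which were 7816 for this comparison.

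Of 45141 probe sets 104 were controls, 38544 were annotated to 1 gene, 860 to several and 5633 to none. For each of 20962 genes the brightest probe set by its mean over the 12 arrays was kept. Symbols of 18394 genes were updated from a RefSeq table, and 897 chosen probe sets are marked antisense in the deposited annotation. limma 3.58.1 (R 4.3.3) was fitted to all 12 arrays with 1 mean per group and moderated variances. Tests were two-sided, with Benjamini-Hochberg adjustment over all genes, for activation in the knockout and in the wild type and for the difference of these responses. The procedure was tested on simulated data. Tables and plots used Python 3.11.15, pandas 2.3.3, numpy 2.4.6 and matplotlib 3.10.9.

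The naive and activated arrays of a mouse share its number in the labels, which pairs them. Pearson's r of their deviations from the group means across genes was 0.13, -0.05 and 0.07 in mice 4, 5 and 6. The fit with the mouse as a block was an alternative. Others were the 6 knockout arrays alone, the mean of all probe sets, genes above the median, median centring, quantile normalization, an intensity trend with robust variances, antisense probe sets left out, and each array left out in turn. The mice are separate animals.

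The comparison, the 44 gene lists and the named genes were chosen with earlier results of these data known. Named genes were Ezh2 and a panel of 20 T-cell genes, the 12 largest rises, falls and differences in each direction, up to 6 rises and 6 falls per list, and all list members whose difference passed. The 12 rises and 12 falls were taken only from passing genes whose activated and naive knockout values do not overlap. For those genes the separation was a condition of entry and not a result. Transcripts without a gene name were left out of these rankings. The text describes only some of the genes this rule gives. A further 5 that it would give were left out of the named genes and are not reported here, but stay in the fit and in the counts per list. Promoter windows came from RefSeq (GRCm38.p6).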

Additional observations from a re-analysis of the deposited data

Results flagged for a closer look

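The activation response differed between the genotypes for 75 of the genes named, by limma's test of the difference with adjustment over all genes. Values in parentheses are the response in knockout cells minus that in wild-type cells, on the log2 scale. A higher response can be a larger rise or a smaller fall. Cd7, for example, fell by 1.82 ± 0.12 in knockout and by 3.44 ± 0.12 in wild-type cells. Of the 75 genes, 48 passed under every alternative in which their probe set was kept, and the immunoglobulin segment gene among them had no value with antisense-marked probe sets left out.

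Among these 48 the response was higher in knockout cells for Inhba (2.67), Perp (2.66), Adm (2.59), Tyrobp (2.52), Gzmc (2.44), Itgae (2.43), Cd24a (2.37), Il9 (2.34), Idi2 (2.20), an immunoglobulin kappa variable segment gene measured by an antisense-marked probe set (2.11), Lgals3 (2.07), S100a6 (2.03), Il3 (1.91), Il2 (1.90), Jchain (1.89), S100a4 (1.69) and Ccl5 (1.67). It was also higher for Id2 (1.63), Cd7 (1.62), Cd74 (1.60), H2-Ab1 (1.49), Ccl1 (1.47), H2-Eb1 (1.36), Dusp4 (1.33), Ccl9 (1.25), Csf2 (1.23), Itga4 (1.20), Tnfsf11 (1.12), Lgals1 (1.07), Gzmb (1.04), Hmgcs1 (0.97), Serpinb9 (0.97), Gadd45a (0.87) and S100a11 (0.79). It was lower in knockout cells for Klra8 (-3.46), Usp18 (-2.14), Ezh2 (-1.82), Eomes (-1.62), Ly6a (-1.44), Iigp1 (-1.31), Myb (-1.25), Arsb (-1.18), Cxcr3 (-1.15), Cd2 (-1.15), Irf7 (-1.06), Oasl2 (-1.01), Lck (-0.93) and Il2rb (-0.82). Klra8 has near-identical copies.

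The other 27 genes did not pass in at least 1 alternative, and 26 of them did not pass with some single array left out. Higher responses in knockout cells of this kind were those of Hspa1b (1.43), Anxa2 (1.23), Idi1 (1.11), Fdft1 (1.04), S100a9 (1.03), Cenpa (0.99), Atf3 (0.93), Bhlhe40 (0.92), Cd160 (0.83), Anxa5 (0.79), Lyz1 (0.77), S100a10 (0.76), Sesn1 (0.68), Ldhb (0.66), Cxcr6 (0.62) and Serpinb9b (0.62). Lower ones were those of Lyst (-1.79), Oas1a (-1.18), Rsad2 (-0.94), Zbp1 (-0.93), Icos (-0.90), Psat1 (-0.72), Oas2 (-0.68), Cd8a (-0.67), Tapbp (-0.60), Bcl2 (-0.59) and Itgal (-0.56). The highest adjusted p among the alternatives was 0.363, for Sesn1. Hspa1b has a near-identical copy, Hspa1a, and its probe set, like those of Cd160 and Psat1, is marked antisense.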

How the results depend on the processing

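The count of genes that changed was 5595 as reported, 5565 with the mouse as a block (5313 of them among the 5595), 4911 from the 6 knockout arrays alone, 5481 after median centring, 5527 after quantile normalization and 4963 to 5384 with 1 knockout array left out. The share of rises was 64.4% after median centring and 49% after quantile normalization, against 59.2%. For the difference between genotypes 182 genes passed as reported, 179 with the block and 122 to 234 with 1 array left out, and the number with a lower response in knockout cells ranged from 25 to 98. Of 330 activation calls among the 472 named genes 300 held under every alternative that gave them a value, which was all 14 for 279 of them. The mean of all probe sets turned the direction of 3 genes that had not passed, Malt1 (-0.93), Cdc45 (0.33) and Slc38a2 (-0.58), and quantile normalization that of Icos (-0.29), and the cause was not tested. With the mouse as a block 23 calls of named genes changed. Of these, Relb, Rpl14, Blk, Gp1bb and Dcn lost the activation call and Ttk, Cdkn3, Polr1b, Gimap1 and Zbtb46 gained it, and 13 differences between genotypes lost theirs, with adjusted p from 0.0507 to 0.107. The block gave no other change of a named call. Without detection calls, the values near the floor set the limit of what these arrays could show.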

Other observations

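Mt1, which encodes the metal-binding protein metallothionein-1, read 0.52, 0.78 and 0.95 in the naive and 5.50, 5.81 and 5.89 in the activated arrays, a rise of 4.98 ± 0.12. Among the largest falls outside the groups, Zeb1, which encodes a zinc-finger repressor, read 5.76, 5.56 and 5.15 in the naive and 1.91, 1.46 and 1.92 in the activated arrays, and fell by 3.73 ± 0.17. Dnajb9, a chaperone gene of the endoplasmic reticulum, fell by 3.55 ± 0.14 while 20 of 24 chaperone genes rose. Ifi213, an interferon-inducible gene, fell by 3.48 ± 0.15, Pex11g, a peroxisome gene, by 3.54 ± 0.25, and Frat2, a gene of the Wnt pathway, by 3.34 ± 0.11.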
